A study of Mus musculus with 15 samples.

Results

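Keratins are the intermediate filament proteins of epithelia, and keratin-associated proteins form the matrix between keratin filaments in the hair shaft. A keratin filament is built from pairs of an acidic type I and a basic type II keratin. In the mouse the type I genes lie in a cluster on chromosome 11, whereas the type II genes lie on chromosome 15 together with Krt18, a type I gene. Krt8 and Krt18 form the filament of simple epithelia and are the first keratin pair made by the embryo, whereas most of the other members are known from stratified epithelia, the inner root sheath and the hair. 5-hydroxymethylcytosine (5hmC) is made from 5-methylcytosine by the TET dioxygenases, so that a cytosine in a CG can be unmodified, methylated or hydroxymethylated.

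The keratin (Krt followed by a number) and keratin-associated (Krtap) genes were taken by symbol from the autosomal protein-coding genes of GENCODE M21, which gave 110 members, 53 Krt and 57 Krtap, of 20807 genes. Genes of a family on 1 chromosome with gaps of at most 1 Mb formed a cluster. The 27 Krt genes of chromosome 11 spanned chr11:99232761-100269871 (mm10), and 23 Krtap genes lay inside this span at chr11:99550130-99993994. The 26 Krt genes of chromosome 15 spanned chr15:101347444-102032027, with Krt8 and Krt18 as neighbours at its end. The other Krtap genes lay at chr16:88610705-89571183 (24 genes), chr7:142174535-142304594 (5 genes) and chr10:77720599-77837252 (3 genes), and Krtap28-10 and Krtap28-13 lay outside these clusters on chromosome 1.

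The DNA came from E14TG2a cells, a line of mouse embryonic stem cells grown on gelatin with LIF and serum. All libraries were made from this line without a genotype or treatment contrast, so that the groups differ in assay and DNA input. In hmTOP-seq, 5hmC is glucosylated by BGT with an azide-bearing glucose, an oligonucleotide is clicked onto the azide, and a polymerase primes from it, so that reads start at or near the labelled CG. Inputs of 500, 50 and 5 ng had 2 technical replicates each, as well as 2 controls each without the BGT step, and uTOP-seq of unmodified CGs (uCGs) had 3 replicates at 300 ng. Whether the uTOP-seq replicates came from separate cultures is not given in the sources used here, and p-values measure the spread between libraries of this line only. The label of embryonic stem cells was not checked against marker genes, since no RNA was measured.

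The hmTOP-seq libraries held between 14884939 and 32502791 reads on CGs and the uTOP-seq libraries between 20120568 and 28412885. A level is given as reads per CG over the gene span and the 2 kb upstream, and a relative level is this value divided by the mean of all autosomal CGs of the same library. The regions of the 110 members held 8451 CGs, 12.5% of which had no read in any hmTOP-seq or uTOP-seq library. The 6 control libraries had between 0 and 10 reads in all of these regions together, where control libraries held between 3409 and 10072 reads in all.

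Promoter sequence of 87 members was found in RefSeq (GRCm38.p6), and all of it was identical to the genome used here. The members were poor in CGs at their starts, with a median of 3 CGs in the 250 bases before the start against 6 over all 32851 promoters of the table. By 500-bp windows within 1 kb of the GENCODE start, 1 member (Krt87) had a CG-rich start (observed over expected CG above 0.75 and GC above 55%), compared with 50.2% of all genes, and 81 members were CG-poor (observed over expected below 0.48). Krt8 and Krt18 fell into the class between, with 2.24 and 2.34 CGs per 100 bp of their regions. Among the 53 Krt genes they ranked 3 and 2 in CG density. Below are 3 promoters, with every measured CG in capitals, chosen after their values had been seen to show both orders of the assays. Krt18 has the most CGs of these and little 5hmC, whereas Krt20, a keratin of the gut epithelium, and Krt42, a type I keratin, have few CGs and much 5hmC. The Krt18 stretch is cut at the GENCODE start, which lies before the RefSeq start.
Krt18, chr15:102027966-102028179, plus strand: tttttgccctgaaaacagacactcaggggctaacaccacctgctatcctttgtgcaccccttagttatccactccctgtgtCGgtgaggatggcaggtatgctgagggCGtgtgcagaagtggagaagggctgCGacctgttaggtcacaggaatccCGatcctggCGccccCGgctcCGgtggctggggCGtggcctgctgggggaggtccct
Krt20, chr11:99438154-99438403, minus strand: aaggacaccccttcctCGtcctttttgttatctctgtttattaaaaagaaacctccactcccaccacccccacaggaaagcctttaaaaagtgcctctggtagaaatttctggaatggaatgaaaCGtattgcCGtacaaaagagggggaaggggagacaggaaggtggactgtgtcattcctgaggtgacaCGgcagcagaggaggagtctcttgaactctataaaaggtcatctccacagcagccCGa
Krt42, chr11:100269952-100270201, minus strand: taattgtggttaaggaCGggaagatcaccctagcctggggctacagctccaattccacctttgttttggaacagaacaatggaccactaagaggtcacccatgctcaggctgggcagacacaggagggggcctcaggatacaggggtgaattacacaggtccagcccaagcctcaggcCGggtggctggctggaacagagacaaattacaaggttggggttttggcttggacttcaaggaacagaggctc

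The 8 CGs of the Krt18 stretch had 8 and 8 reads in the 500-ng replicates and 63, 50 and 48 reads in the uTOP-seq replicates. The 5 CGs of Krt20 had 89 and 101 reads at 500 ng and 22, 21 and 9 uTOP-seq reads, and the 2 CGs of Krt42 had 39 and 42 against 13, 3 and 4. The order of the assays was thus opposite in Krt18 to that in Krt20 and Krt42, without overlap of the replicates in any of the 3 promoters. Of 37 Krt promoters with a CG, 19 (51.4%) had the higher relative level in 5hmC and 18 in uCG, without overlap of the replicates in 15 (40.5%) and 7 (18.9%). Of 38 Krtap promoters with a CG, 11 (28.9%) were higher in 5hmC, 23 in uCG and 4 equal, without overlap in 3 (7.89%) and 4 (10.5%). Over 29017 autosomal promoters of the table, 24.0% were higher in 5hmC, and the groups did not overlap in 12.6% with 5hmC higher and in 52.2% with uCG higher. At 5 ng the same promoters had 0 and 13 reads for Krt18, 26 and 36 for Krt20, and 12 and 0 for Krt42, so that replicates of 1 promoter differed widely for Krt18 and Krt42.

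At 500 ng the median level of the members was 1.50 reads per CG (n = 110), beside 1.52 for all genes. This median joined families that differed. Krt genes had a median of 2.63 reads per CG and Krtap genes of 0.85. In relative level these medians were 1.68 and 0.541, beside 0.972 for all genes. Over the gene span alone, an alternative chosen after seeing the data, they were 1.65 over 53 Krt and 0.826 over the 56 Krtap genes with a CG there, beside 1.0 for all genes, so that the Krtap median depended on the region. Of the 53 Krt genes, 41 lay above the median of all genes, compared with 13 of the 57 Krtap genes. Among all genes, 11 Krt and 3 Krtap genes were in the top 10%, and 1 Krt and 19 Krtap genes were in the bottom 20%. In uTOP-seq both families were low. The median relative uCG level was 1.06 for Krt, 0.619 for Krtap and 1.33 for all genes, and 14 Krt and 3 Krtap genes exceeded the latter. The plot of 5hmC against uCG by member shows these families with the median of all genes.

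**Figure D1:**
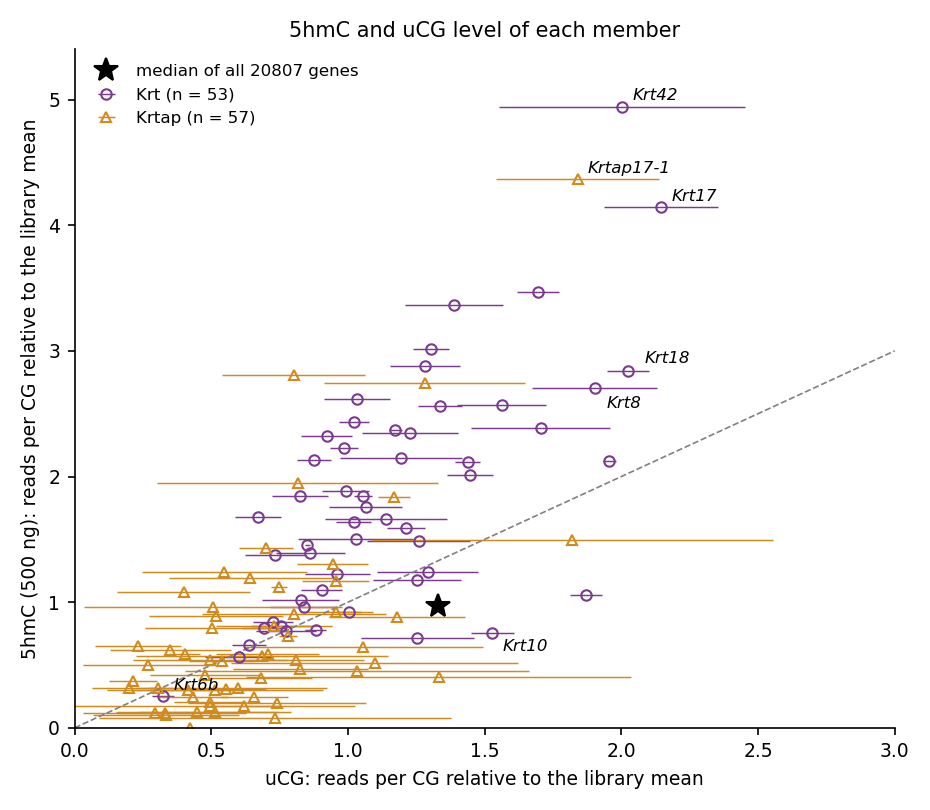
5hmC level at 500 ng (mean of 2 replicates, y axis) against uCG level (mean of 3 replicates with SD, x axis) for each of the 53 Krt and 57 Krtap genes, both as reads per CG divided by the library mean. Most Krt genes lie above the dashed line of equal relative level and left of the star that marks the median of all 20807 genes, and most Krtap genes lie at the lower left.

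By cluster, the pooled relative 5hmC level at 500 ng was 1.90 ± 0.029 (SD, n = 2) for the Krt genes of chromosome 11 and 2.0 ± 0.020 for those of chromosome 15. The Krtap genes of chromosome 11, which lie between Krt genes, had 1.19 ± 0.019, and those of chromosome 16 had 0.502 ± 0.026. The small clusters of chromosomes 7 and 10 had 0.503 ± 0.053 and 1.25 ± 0.162, over 61 and 93 CGs. The differences between the first 4 clusters were larger than the range between replicates. The median over genes was 1.66 for the Krt genes of chromosome 11, where the 5 genes that adjoin the cluster on either side had medians of 1.67 and 2.27. It was 1.80 for the Krt genes of chromosome 15, where the neighbours had 1.97 and 2.67, and 0.320 for the Krtap genes of chromosome 16, where they had 1.16 and 1.40. The Krtap genes of chromosome 11 had a median of 0.728 beside the same neighbours as the Krt genes there, and those of chromosome 7 had 0.401 beside 0.933 and 2.20. The medians of these Krtap clusters were thus below those of their neighbours on both sides. They rest largely on the 2 kb upstream, which holds 793 of the CGs counted over Krtap genes, beside 559 in exons and 85 in introns. Over the gene span alone, an alternative chosen after seeing the data, the median was 1.13 for Krtap of chromosome 11, beside 1.89 and 2.51 for the neighbours, and 0.387 for Krtap of chromosome 16, beside 1.34 and 1.52. For chromosome 7 it was 1.45 over 6 CGs, above the 0.646 of the left neighbours, so that the order there depended on the region. In exons the pooled relative level was 2.09 for Krtap of chromosome 11 and 0.866 for Krtap of chromosome 16, beside 1.72 over all genes. The value for chromosome 11 is pooled over CGs and includes the exons of Krtap17-1 and Krtap16-1, the highest Krtap genes there. It was not computed without these genes, so that its place above all genes may rest on them. Chromosome 11 as a whole was high in both assays, with relative levels of 1.44 for 5hmC and 1.33 for uCG, beside 1.07 and 1.08 for chromosome 15 and 0.848 and 0.930 for chromosome 16, and the part of this in the cluster levels was not tested.

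The Krt clusters were above the Krtap genes of chromosome 16 at lower inputs too. With 50 ng, the relative level was 1.86 and 1.85 for Krt of chromosome 15, 1.79 and 1.84 for Krt of chromosome 11, and 0.449 and 0.412 for Krtap of chromosome 16. With 5 ng the same clusters had 1.85 and 1.83, 1.71 and 1.46, and 0.242 and 0.600. In uTOP-seq the corresponding values were 1.25 ± 0.012 (SD, n = 3) for Krt of chromosome 15, 1.18 ± 0.0074 for Krt of chromosome 11, 0.833 ± 0.045 for Krtap of chromosome 11 and 0.505 ± 0.025 for Krtap of chromosome 16. The order of these clusters was thus shared by both assays, and their spread was larger in 5hmC.

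Within the chromosome 11 span, the highest level was that of the last gene at its right end. This gene, Krt42, had 7.79 and 7.67 reads per CG in the 500-ng replicates, with an exact Poisson interval of the mean of 7.42 to 8.04 (95%, counting error only), which placed it at percentile 99.6 of all genes. Its neighbour Krt17, which is induced in wounded and appendage epithelium, had 6.12 and 6.83, and Krt14, the type I keratin of basal keratinocytes, had 5.22 and 5.63. Krt16, which lies between Krt14 and Krt17, had 2.70 and 2.55, close to the median of the Krt genes. Krtap17-1, a hair shaft gene at the right edge of the Krtap genes, had 7.19 and 6.48 over 42 CGs, and Krtap16-1 next to it had 3.92 and 4.67. Both stood apart from the other 21 Krtap genes of this cluster, which had between 0.269 and 2.23 reads per CG. The lowest Krt genes were Krt39 with 0.813 and 0.955 and Krt32 with 1.36 and 0.870, both hair keratins of the middle part. The lowest Krtap genes with at least 10 CGs were Krtap9-1 with 0.385 and 0.154 and Krtap3-1 with 0.423 and 0.346.

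**Figure D2:**
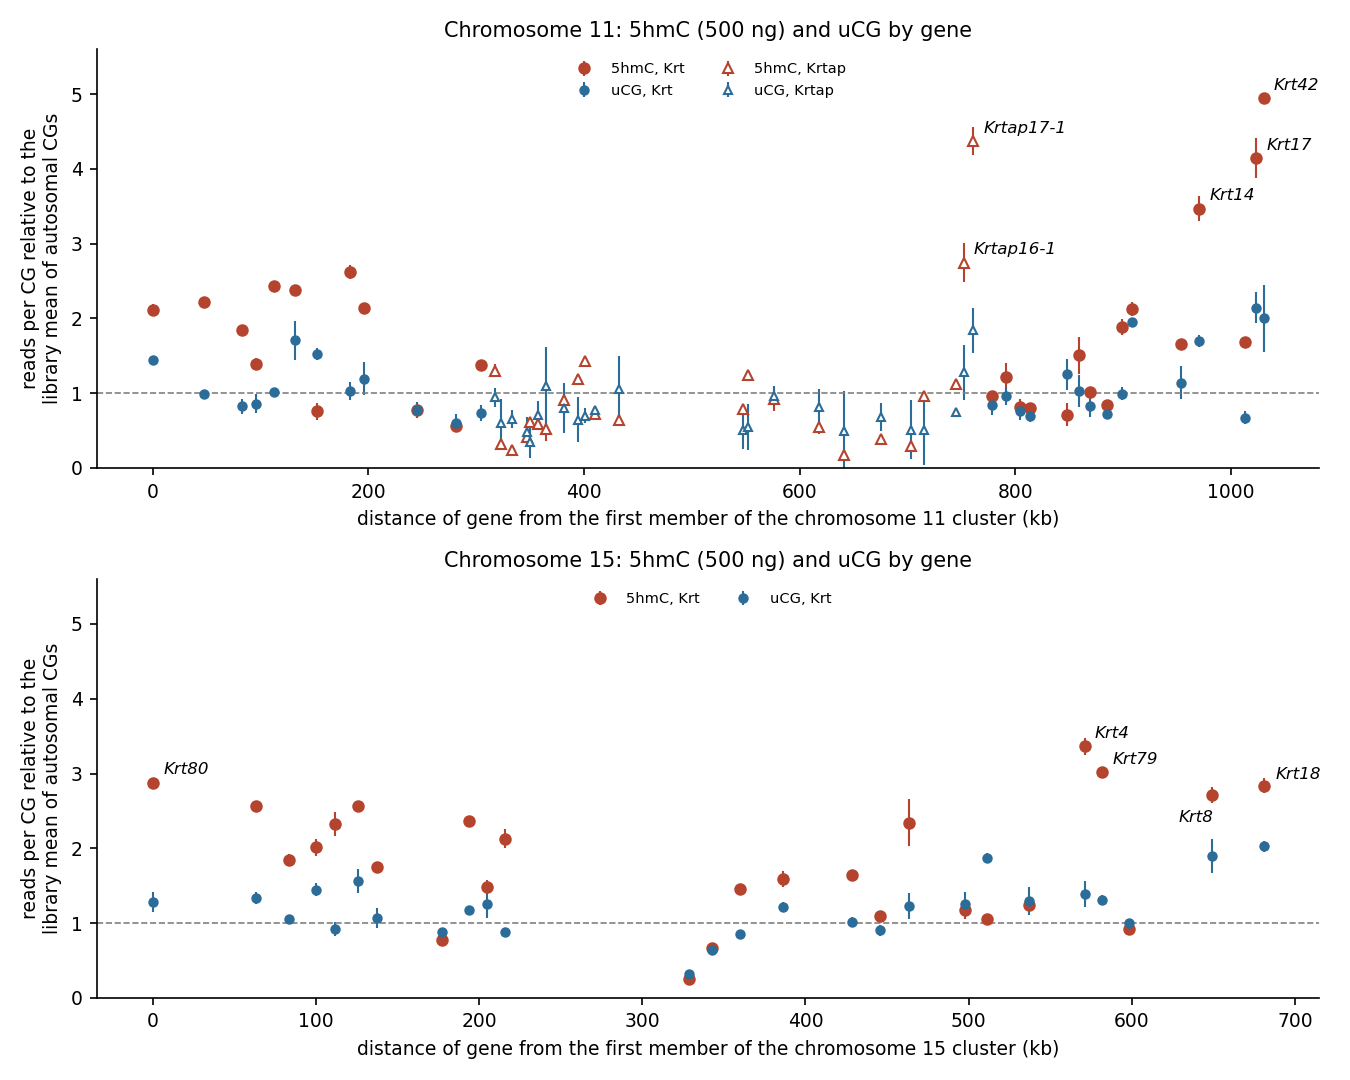
Relative level of each member along the clusters of chromosome 11 (top) and chromosome 15 (bottom), with 5hmC at 500 ng as mean and range of 2 replicates and uCG as mean and SD of 3 replicates. Filled circles are Krt and open triangles Krtap genes, and the dashed line is the mean of all autosomal CGs. Krt42, Krt17, Krt14 and Krtap17-1 reach relative 5hmC levels of 4.94, 4.15, 3.47 and 4.37, whereas most Krtap genes between the Krt genes lie below 1.

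On chromosome 15, Krt4 and Krt79 were highest. Krt4, a type II keratin of the internal stratified epithelia, had 5.49 and 5.03 reads per CG, and Krt79, known from the hair follicle infundibulum, had 4.80 and 4.64. Krt6b and Krt6a, stress-induced type II keratins, were lowest with 0.516 and 0.281 and with 1.12 and 0.948. They were also low in uCG (relative 0.324 and 0.638), and 43.8% and 41.6% of their CGs had no read in any library, compared with a median of 10.5% over Krt genes. These neighbours are close copies of each other, and the mapping quality filter can remove reads from such copies, so that their levels are uncertain, and the part of this filter was not tested. The same holds for Krtap subfamilies, in which a median of 24.1% of CGs per gene had no read, compared with 15.0% for all genes. On chromosome 16 the highest members with at least 10 CGs were Krtap13-1 with 2.55 and 3.55 reads per CG over 11 CGs and Krtap11-1 with 1.94 and 1.71, and the lowest were Krtap6-1 with 0.316 and 0 and Krtap19-4 with 0.273 and 0.0909. Krtap20-2 had no read at 500 ng over its 4 CGs. On chromosome 7, Krtap5-3 had 0.846 and 0.615, Krtap5-4 had 0.611 and 0.333 and Krtap5-2 had 0.615 and 0. On chromosome 10, Krtap10-10 had 2.78 and 2.98, Krtap10-4 had 1.26 and 1.49 and Krtap12-1 had 0.429 and 1.36. Outside the clusters Krtap28-13 was high, with 4.70 and 4.09, and Krtap28-10 had 1.22 and 1.56.

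Krt8 had 4.44 and 4.03 reads per CG at 500 ng, and Krt18 had 4.32 and 4.55. They were at percentiles 92.5 and 93.8 of all genes. Their replicates overlapped, so that the pair could not be told apart by the level of the whole region. By feature they did not overlap at 500 ng. Krt8 was higher upstream (9.77 and 9.27 against 6.50 and 6.02) and in exons, and Krt18 was higher in introns. The other 51 keratins had a median of 2.70 and 2.62 in these libraries. Pooled over CGs, the ratio of Krt8 and Krt18 to the other keratins was 1.46 and 1.43 in the 500-ng replicates and 1.47 and 1.45 in the 50-ng replicates. It was 1.83 and 1.82 with 5 ng and 1.61, 1.81 and 1.54 in uTOP-seq. The pair was thus above the pooled other keratins in each of the 9 libraries, but not above each of them. At 500 ng 6 other keratins had more 5hmC than Krt8 in replicate 1 and 7 in replicate 2, while in uTOP-seq 4, 0 and 5 had more uCG than Krt8. By mean level Krt18 and Krt8 ranked 7 and 8 of 53 in 5hmC and 2 and 5 in uCG.

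**Figure D3:**
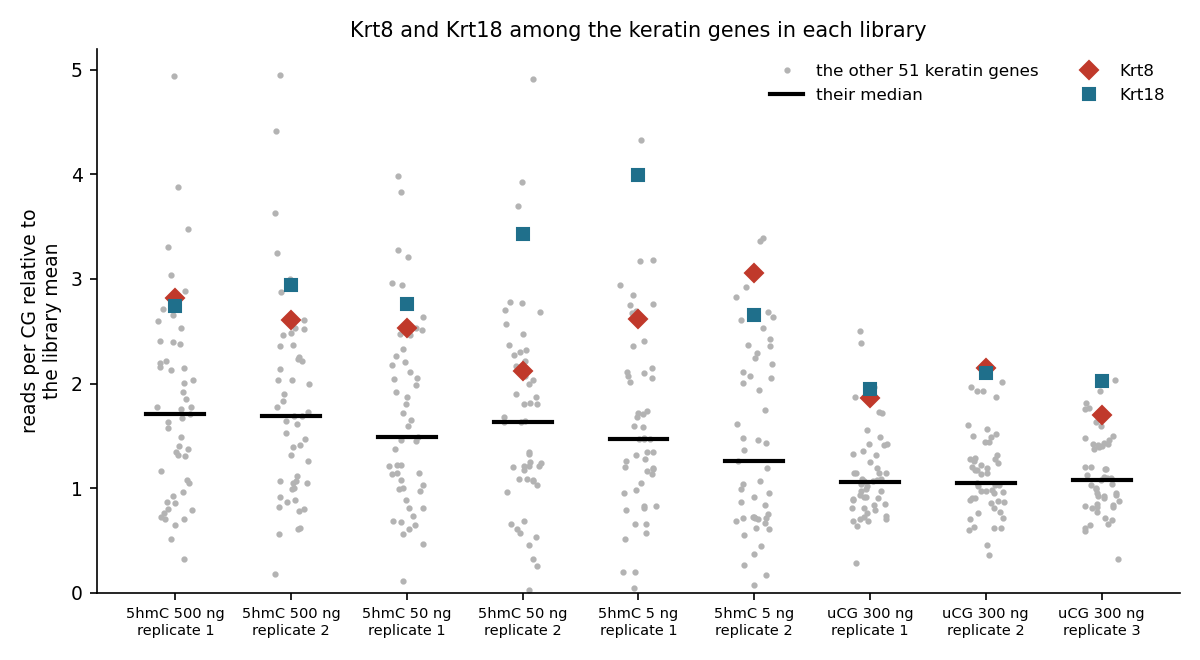
Relative level (reads per CG divided by the library mean) of Krt8, Krt18 and each of the other 51 keratin genes in the 6 hmTOP-seq and 3 uTOP-seq libraries, with the median of the 51 genes as a bar. Krt8 and Krt18 lie above this bar in each library, and several other keratins lie above both in 5hmC at 500 ng.

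The share of all Krt reads that fell in Krt8 and Krt18, which hold 5.02% of the CGs counted over Krt genes, was compared between the assays. The 500-ng replicates had shares of 7.18% and 7.03%, the 50-ng replicates 7.19% and 7.15% and the 5-ng replicates 8.84% and 8.81%. The uTOP-seq replicates had 7.84%, 8.73% and 7.54%. The groups overlapped, since the 5-ng libraries lay above and the other 5hmC libraries below the uTOP-seq libraries. The mean was 7.70 ± 0.872% (SD, n = 6) in 5hmC and 8.04 ± 0.622% (SD, n = 3) in uCG. The difference of -0.338 percentage points did not pass a two-sided exact permutation test (p = 0.524, and 0.0238 is the smallest p possible). The 6 hmTOP-seq libraries are 3 inputs with 2 technical replicates each, so that their SD includes the difference between inputs. Each test that joins inputs took these libraries as exchangeable, which the 5-ng shares go against. The difference was -0.900 points without the 5-ng libraries and -0.931 with 500 ng alone, where the groups did not overlap but the exact permutation p could not go below 0.0571 and 0.2, which it reached. It turned to 0.0105 points without uCG replicate 2. Without the 2 kb upstream, the share was 4.68% to 6.77% in the 6 hmTOP-seq libraries and 7.50% to 8.24% in uTOP-seq, without overlap, and the difference of -2.22 percentage points passed the exact permutation test (p = 0.0238). This call rests on the region chosen for a gene.

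By feature, the pair differed most from the other keratins in 5hmC in the 2 kb upstream. There Krt8 and Krt18 together had 7.56 and 7.07 reads per CG at 500 ng, and the other keratins had 2.64 and 2.71. In exons the values were 4.01 and 3.67 for the pair and 3.93 and 3.80 for the others, which overlapped, and in introns 3.33 and 3.47 and 2.13 and 2.12. The relative uCG level of the pair and of the others was 2.22 ± 0.455 (SD, n = 3) and 1.26 ± 0.038 upstream, 1.78 ± 0.122 and 1.28 ± 0.018 in exons, and 1.98 ± 0.120 and 1.02 ± 0.030 in introns. In uCG the pooled pair was thus above the others in each feature, without overlap of the replicates, and in 5hmC upstream and in introns. Taken singly, Krt8 overlapped the others in uCG upstream (1.46, 2.61 and 1.26 against 1.22, 1.29 and 1.27). Krt18 overlapped them in uCG in introns (1.34, 0.869 and 1.41 against 1.03, 0.988 and 1.05). In the other features each gene was above them in uCG. In exonic 5hmC Krt8 was above the others with 4.80 and 3.95, and Krt18 was below with 2.98 and 3.31.

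Around the starts the pair differed from the other keratins in shape. The windows used here were chosen after the profiles had been seen. Within 250 bp of the GENCODE start, Krt18 had 2.09 and 1.81 reads per CG at 500 ng and Krt8 had 3.0 and 2.50, whereas the other keratins had 6.31 and 5.84. In the same window the relative uCG level was 4.23 ± 0.335 (SD, n = 3) for Krt18, 4.31 ± 1.39 for Krt8 and 1.60 ± 0.072 for the others. Between 400 and 2000 bp before the start the order turned, with 9.31 and 8.86 reads per CG for Krt18, 10.7 and 10.3 for Krt8 and 2.26 and 2.28 for the others. At 500 ng the pair was therefore below the pooled other keratins in 5hmC and above them in uCG at the start, and above them in 5hmC farther upstream. By mean level over the replicates, 36 of the other 51 keratins were above Krt8 at the start in 5hmC and 40 were above Krt18, while 15 and 11 were below them. For uCG at the start 50 of the 51 were below Krt8 and 50 below Krt18, and for 5hmC farther upstream each of the 51 was below both. At lower inputs this held at the start for Krt18, with relative levels of 0.503 and 0.526 at 50 ng and 0 and 1.01 at 5 ng. Krt8 had 2.61 and 3.04 at 50 ng, nearer to the 3.51 and 3.55 of the other keratins, and 3.23 and 0 at 5 ng, above their 2.83 in replicate 1 and below their 3.13 in replicate 2. The low start of Krt8 thus rests on the larger inputs and is smaller at 50 ng. Over all genes with a CG-rich start, the relative 5hmC level was 0.139 within 250 bp and 1.15 upstream, while it was 2.29 and 1.31 over genes with a CG-poor start. Genes of the class between, to which Krt8 and Krt18 belong, had 1.42 within 250 bp and 1.60 upstream, and relative uCG levels of 2.89 and 1.72. Krt8 and Krt18 had relative 5hmC levels of 1.76 and 1.25 at the start and 6.73 and 5.81 upstream. They thus had the direction of their own class and of CG-rich genes. The other keratins, pooled, with 3.88 and 1.45, had that of CG-poor genes. Of these 51 keratins, 31 had a CG-poor start, 19 were of the class between and 1 had a CG-rich start. They were not split by class here. The RefSeq start of Krt8 lies 140 bp downstream of the GENCODE start, and around the RefSeq start, an alternative chosen after seeing the data, Krt8 had a relative 5hmC level of 2.74 and a uCG level of 3.62, with 1.26 and 4.59 for Krt18 and 3.98 and 1.60 for the other 34 keratins with a RefSeq start. The order was the same, and the gap of Krt8 in 5hmC was smaller. The windows of Krt8 hold 12 and 18 CGs, and 1 CG had 98 of its 500-ng reads.

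**Figure D4:**
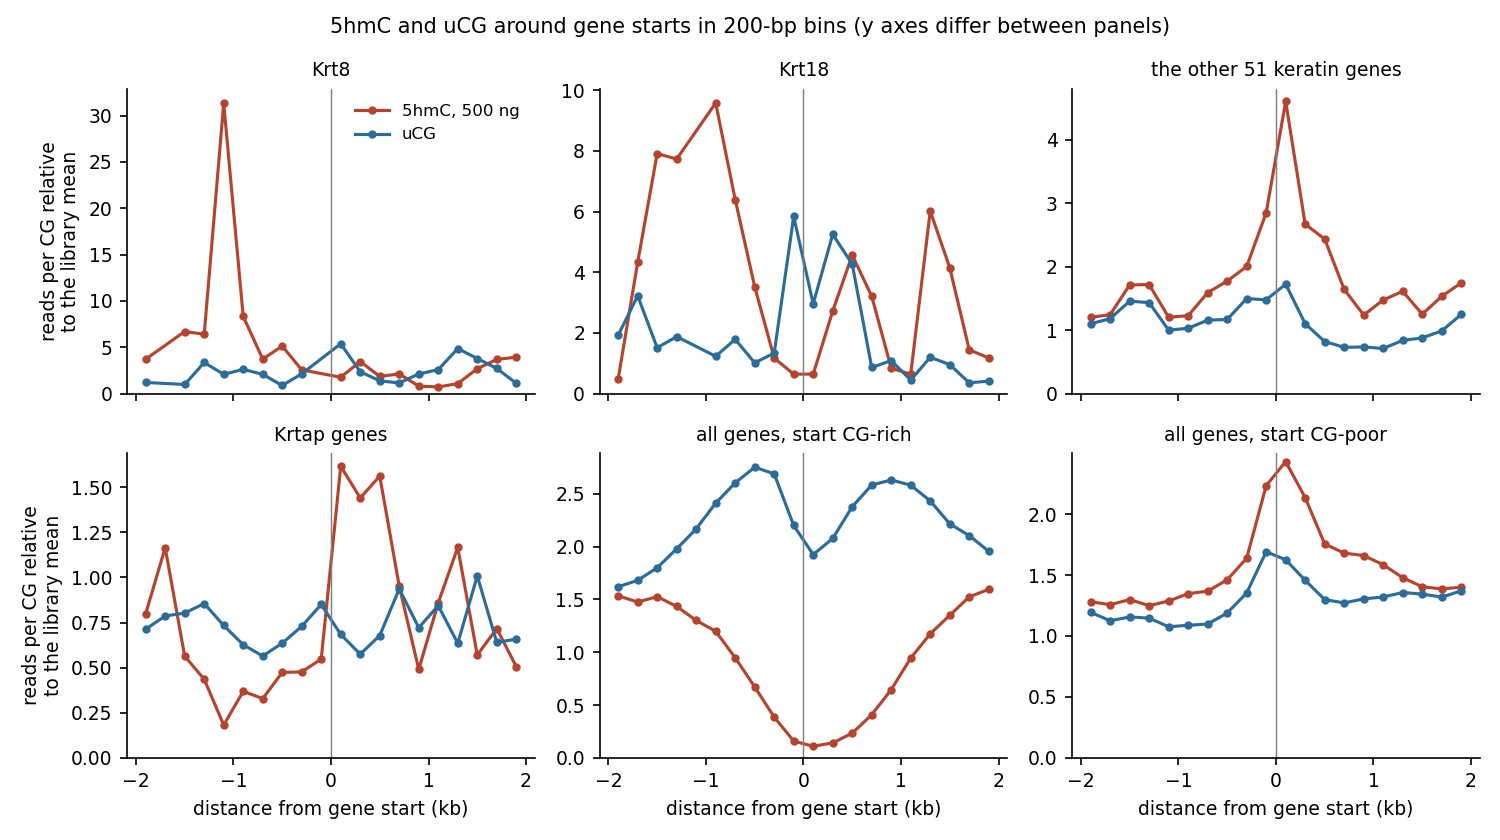
Relative level of 5hmC (500 ng, mean of 2 replicates) and uCG (mean of 3 replicates) in bins of 200 bp from 2 kb before to 2 kb after the GENCODE start, for Krt8, Krt18, the other 51 keratin genes, the 57 Krtap genes and all genes with CG-rich or CG-poor starts, with y axes that differ between panels. In the bins on either side of the start of Krt18, relative 5hmC is 0.640 and uCG is 5.84 and 2.96, whereas 5hmC is high at the start in the other keratins, and the highest bin of Krt8 holds 1 CG.

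Other keratins of simple epithelia differed in the 2 kb before the GENCODE start. Krt7, a type II partner of ductal epithelia, had 0.143 and 0.357 reads per CG in the 2 kb upstream of its GENCODE start, and Krt19, a type I keratin of simple and ductal epithelia, had 6.09 and 7.35. The RefSeq start of Krt7 lies 1360 bp downstream of the GENCODE start, and the 16 CGs in the 250 bases before it had 113 and 77 reads at 500 ng. The low level of Krt7 before its start thus depends on the start used. Over whole regions Krt80 had 4.55 and 4.45, Krt7 had 4.10 and 3.91, Krt20 had 3.39 and 3.32, Krt19 had 3.21 and 3.43 and Krt23 had 1.14 and 1.27. Krt80 and Krt7 overlapped neither with each other nor with Krt20, Krt19 and Krt23, while Krt20 and Krt19 overlapped. Krt23 was below the median of all genes.

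In Krtap genes, most of which are a single short exon, the 5hmC level was higher in the exon than upstream. Exonic CGs had 2.48 and 2.49 reads per CG in the 500-ng replicates and upstream CGs had 0.871 and 0.826. For uCG the relative levels were 0.730 ± 0.021 (SD, n = 3) in exons and 0.732 ± 0.030 upstream. The ratio of exonic to upstream level was between 2.44 and 4.09 in the 6 hmTOP-seq libraries and between 0.938 and 1.07 in the 3 uTOP-seq libraries, without overlap. Over all genes it was between 1.64 and 1.85 and between 0.754 and 0.773, and over Krt genes between 0.901 and 1.36 and between 0.964 and 1.04. Of 41 Krtap genes with at least 5 CGs in each feature, 35 (85.4%) had the higher 5hmC level in the exon and 20 (48.8%) the higher uCG level, compared with 65.6% and 36.8% of 19867 genes. In Krtap17-1 the exon had 9.71 and the upstream region 2.16 reads per CG, in Krtap16-1 the values were 5.93 and 0.472, and in Krtap13-1 they were 7.88 and 0.286. Krtap28-13 went the other way, with 3.24 in the exon and 5.26 upstream.

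**Figure D5:**
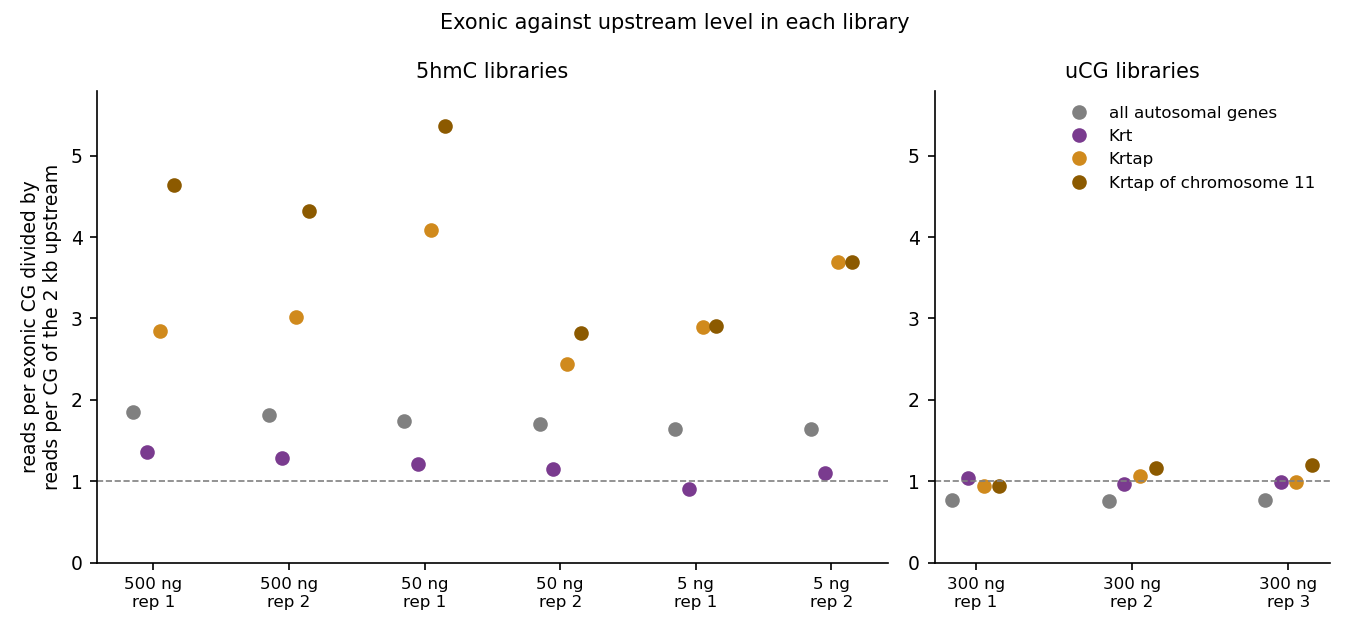
Reads per exonic CG divided by reads per CG of the 2 kb upstream, pooled over genes, in each hmTOP-seq (left) and uTOP-seq (right) library, for all autosomal genes, Krt, Krtap and the Krtap genes of chromosome 11. The Krtap points lie between 2.44 and 4.09 in the 5hmC libraries and near 1 in the uCG libraries, and Krt points lie below those of all genes in the 5hmC libraries.

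The strongest sites of members had a sequence feature in common with those of other genes. Of 82 members with at least 10 reads at their strongest CG in the 500-ng replicates together, 76 (92.7%) had this CG preceded by a C or followed by a G, a flank found at 52.7% of the CGs of Krt genes and 52.9% of those of Krtap genes. By the same count, 92.6% of 18204 autosomal genes had such a flank at their strongest CG, so that the share is not particular to members. The strongest CG was exonic in 55, upstream in 16 and intronic in 11 of these. The following stretches of the gene's strand show this CG, in capitals, for the member with most reads at a CG (Krt2, a type II keratin of the upper epidermis), for Krt7, Krt8, Krt18 and for the Krtap gene with the highest level.
Krt2, exon, chr15:101818059-101818088: tctcctgcaggtccCGaagaggaggaggcg
Krt7, intron, chr15:101414889-101414918: ctgcccctgagcacCGgggacagctagtgt
Krt8, upstream, chr15:102005498-102005527: ggccagcctggggcCGggggcagaggagaa
Krt18, intron, chr15:102029542-102029571: gagtcaagtaagtcCGgggctgcagctgga
Krtap17-1, exon, chr11:99993911-99993940: catgggatgctgccCGggagactgcctcaa

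The Krt2 site had 68 and 67 reads at 500 ng and 8, 10 and 18 in uTOP-seq, and it held 15.7% of the 500-ng reads of the gene. The Krt7 site had 75 and 49 against 9, 9 and 8, and the Krt8 site had 49 and 49 against 2, 3 and 2. The Krt18 site had 24 and 32 against 4, 1 and 5, and the Krtap17-1 site had 43 and 34 against 12, 4 and 6. These sites were chosen as the highest in 5hmC, so that their excess over uCG is a description. At 5 ng the replicates of a site could differ widely, with 20 and 122 reads at the Krt8 site and 13 and 71 at the Krt2 site.

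The flank moved with the level in all CGs, not only in the strongest. CGs with a C before or a G after had 4.15 reads per CG in Krt genes and 2.35 in Krtap genes at 500 ng, and the other CGs had 1.82 and 0.564. Over all autosomal CGs the values were 2.35 and 0.889, so that the same order held outside the keratin genes. It also held in uTOP-seq, with relative uCG levels of 1.38 and 1.03 in Krt genes, 0.789 and 0.648 in Krtap genes and 1.18 and 0.843 over all autosomal CGs, so that the flank is shared by both assays. In Krtap exons 68.3% of CGs had this flank and in Krtap upstream regions 42.2%. Within flanked CGs the exonic level was 3.15 and the upstream level 1.49, and within the others they were 1.06 and 0.381. Exons were thus above upstream regions in both kinds of site.

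5hmC at 500 ng was compared with uCG by the quasi-likelihood test of edgeR on reads per gene. The log2 fold change is relative to the centre of all genes, since the assays have no common scale. Of 93 members with a mean of at least 10 reads, 65 passed an adjusted p of 0.05 (Benjamini-Hochberg over 19522 genes), whereas 82.1% of all genes did. Of these, 59 were higher in 5hmC and 6 were lower. Over all genes 40.3% were higher and 41.8% lower. The other 17 members, all Krtap, had too few reads. The median log2 fold change was 0.86 for 53 Krt genes, 0.49 for the 40 Krtap genes tested and -0.03 for all genes. The family medians depended on the settings. Without the 2 kb upstream the median was 0.75 for Krt and 1.54 for the 24 Krtap genes then tested, of which 16 were higher and 0 lower. Of all 19077 genes in that fit, 7573 were higher and 7876 lower. Fewer Krtap genes passed the read filter there, and high 5hmC can itself carry a gene past it. The turned order of the families can therefore not be put down to the region. With the 2 kb upstream, the Krtap median was 0.16 with no filter and 0.19 with library totals. Scaling by library totals moved the median of all genes to -0.33 and gave 45 members higher and 8 lower, which is 84.9% higher among the calls compared with 90.8% above, while over all genes the higher share of the calls fell from 49.1% to 32.8%. By promoter class, 34.2% of genes with a CG-rich start, 52.7% of the class between and 43.5% of CG-poor genes were higher. Among Krt genes, 19 of 21 in the class between (90.5%), 21 of 31 with a CG-poor start (67.7%) and the 1 with a CG-rich start were higher. Among Krtap genes, 3 of 7 in the class between (42.9%) and 15 of 33 with a CG-poor start (45.5%) were higher.

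Krt8 had a log2 fold change of 0.81 ± 0.084 (SE; edgeR, adjusted p = 3.9e-12) and Krt18 of 0.79 ± 0.094 (edgeR, adjusted p = 2.1e-10), both close to the median of the Krt genes. Their relative levels were 2.81 and 2.60 and 2.74 and 2.94 in 5hmC against 1.86, 2.15 and 1.70 and 1.95, 2.10 and 2.02 in uCG, without overlap. Among the members that passed the read filter, the largest differences were found in Krtap genes. Krtap28-13 had 254 and 221 reads at 500 ng and 72, 30 and 49 in uTOP-seq, a log2 fold change of 2.10 ± 0.195 (edgeR, adjusted p = 1.4e-13). With CGs of a single gene only, this fell to 0.67 and did not pass (edgeR, adjusted p = 0.268, the highest of 12 alternatives, the lowest being 1.5e-24). Krtap13 had 21 and 26 reads against 3, 5 and 9, a log2 fold change of 1.88, and Krtap26-1 had 64 and 58 against 18, 7 and 23, a log2 fold change of 1.77. Lower in 5hmC were Krtap19-5, with 8 and 7 reads against 22, 24 and 14 (log2 fold change -1.53), Krtap3-1, with 11 and 9 against 25, 15 and 19 (-1.10), and Krtap14, with 19 and 20 against 46, 39 and 20 (-0.96). The uCG reads of Krtap13 and the 5hmC reads of Krtap19-5 alone were below the mean that the read filter required. Krtap13 thus passed the filter through its 5hmC reads and Krtap19-5 through its uCG reads. Members with as few reads in both assays were not tested, so that the place of these genes among all members is open. Krtap3-1 and Krtap14 did not pass under 6 of the 11 alternatives that gave a value for them, among them the fits without either 500-ng replicate.

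The remaining lower genes were Krt10, the type I keratin of the suprabasal epidermis, its epidermal relative Krt77, and Krt32, which were named after their values had been seen. Krt10 had 155 and 205 reads at 500 ng and 324, 244 and 235 in uTOP-seq, and Krt77 had 283 and 282 against 439, 368 and 301. Krt32 had 105 and 67 against 114, 103 and 111. Their log2 fold changes were -0.71, -0.52 and -0.50. On the relative scale none of the 3 overlapped between the assays, with 0.864 and 0.562 in 5hmC and 1.08, 1.20 and 1.48 in uCG for Krt32. Krt10 and Krt77 passed under each alternative. Krt32 did not pass under 4 of 12 alternatives, which were DESeq2, the replicate block, and the fits without replicate 2 of 500 ng (edgeR, adjusted p = 0.434) or replicate 3 of uTOP-seq (edgeR, adjusted p = 0.121), and its adjusted p ranged from 0.00036 to 0.434 over the alternatives.

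Keratins were also grouped by where they are known to be made. All 7 of simple epithelia were higher in 5hmC than in uCG, with a median log2 fold change of 0.81, as were the 3 of the basal layer (Krt5, Krt14 and Krt15, median 1.23) and the 7 measured of the inner root sheath (median 0.98). Of 15 hair shaft keratins 10 were higher and 1 was lower (median 0.66), and of 7 suprabasal keratins 3 were higher and 2 lower (median 0.21). Of 5 stress-induced keratins 3 were higher and of 5 of internal stratified and corneal epithelia 4 were higher, with none lower in either. Beside them, 6 of 15 other intermediate filament genes, such as vimentin and the lamins, were higher and 7 lower (median 0.04), 9 of 17 desmosome and plakin genes were higher and 4 lower (0.20), and 9 of 16 genes of the cornified envelope and hair follicle were higher and 6 lower (0.36). These counts stand beside the 40.3% and 41.8% of all genes.

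The members were then compared between inputs. At 50 ng against 500 ng, 0 of 90 members passed the edgeR test, and 0.00532% of all 18814 genes, 1 gene, were called. An unadjusted p below 0.05 was found for 5 members and for 2178 of all 18814 genes. DESeq2 also called 0 members, but gave an adjusted p for 3 of them only, and called 1.77% of the 6777 genes that had one. The median log2 fold change was -0.07 over members and 0.00 over all genes. At 5 ng against 500 ng, 0 of 86 members passed and 0% of all 18639 genes were called. Here 7 members and 2104 of all 18639 genes had an unadjusted p below 0.05. The median log2 fold change at 5 ng was -0.13 over members and 0.007 over all genes. Here DESeq2 called 3 of 86 members, all lower at 5 ng, namely Krt42, Krt10 and Krtap26-1, and 5.32% of all genes. In simulated data of the same depth, 91.5% of genes changed 2-fold were recovered at 50 ng and 2.5% at 5 ng. With this test 2-fold changes were thus rarely detectable at 5 ng. The simulation gave all genes and both inputs a common spread and drew the changed genes from all tested genes. Replicates of members differed more than those of all genes at 50 ng (median 1.31-fold against 1.12-fold). The share recovered among members was not computed, so that 91.5% may be too high for them. Without replicate 1 or 2 of 50 ng, 9 of 90 and 9 of 89 members were called, where 12.6% and 12.7% of all genes were. Without replicate 1 or 2 of 5 ng, 47 and 39 of 86 members were called, where 57.8% and 56.5% of all genes were. The shares of members were at or below those of all genes in these fits.

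The spread between replicates grew as input fell. Members differed between the replicates by a median of 1.13-fold, 1.31-fold and 1.54-fold with 500, 50 and 5 ng, over the 106, 101 and 77 members with reads in both replicates, beside 1.06-fold, 1.12-fold and 1.32-fold for all genes. Another 3, 3 and 14 members had 1 replicate at 0 and enter no fold, so that the spread is understated most at 5 ng, and both replicates were at 0 for 1, 6 and 19 members. Across genes, the relative level at 500 ng and that at 50 ng had a Pearson r of 0.979 over the 53 Krt genes and 0.931 over the 57 Krtap genes, and for 5 ng r was 0.839 and 0.770. These genes share libraries and are not independent. Krtap genes have a median of 22 CGs and Krt genes of 130, so that the lower values come with fewer reads per gene.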

How the data were processed

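The authors aligned reads to mm10, kept those of mapping quality 30 or more, removed duplicates that shared start and length, assigned reads to CGs and deposited raw read counts per CG and library, without normalization or pooling; aligner names are not given in the sources used here. From these counts, with strands merged, reads were summed per gene (GENCODE M21 span plus 2 kb upstream) for 15 libraries (6 hmTOP-seq, 6 controls, 3 uTOP-seq). Members and gene lists were chosen with earlier results of these data known. Genes were compared with edgeR 4.0.16 (TMM, quasi-likelihood, R 4.3.3), with a mean of at least 10 reads and a threshold of 0.05 on the Benjamini-Hochberg adjusted p over all genes, with DESeq2 1.42.0 as alternative. Each pair of groups was fitted alone. Shares were compared by an exact permutation test over libraries (SciPy 1.17.1). Named genes were Krt8, Krt18, the other simple epithelial keratins, in each cluster the 2 highest and 2 lowest with at least 10 CGs, members outside clusters, and the 3 largest changes in each direction. A fit was tested on simulated data with a common spread for all genes. In these, 98.5% of 200 genes changed 2-fold were recovered for 5hmC against uCG. Depth limits single genes, since duplicates were removed without molecular identifiers and intervals cover counting error only. Alternatives were another tool, no filter, library totals, other gene regions, capped sites, a replicate block and leaving out each library. Control counts were used as background only.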

Additional observations from a re-analysis of the deposited data

How the results depend on the processing

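For 5hmC against uCG, every alternative tried gave between 53 and 65 called members, and leaving out 1 library gave 54 to 65, while 76.4% to 82.5% of all genes were called. Of the 65 called members, none that was tested changed direction, and between 51 and 65 kept their call. The replicate numbers did not pair the libraries (correlations of same-numbered deviations of -0.003, 0.0351 and -0.00975). A replicate block gave 60, 0 and 0 called members in the 3 comparisons, where it called 80.7%, 0.579% and 0.0107% of all genes. The counts between inputs depended on the libraries. At 50 ng against 500 ng, leaving out 1 library gave 0 to 9 called members, the 9 arising without either 50-ng replicate, where 12.6% and 12.7% of all genes were called. At 5 ng against 500 ng it gave 0 to 47, with 47 without replicate 1 and 39 without replicate 2 of 5 ng, and DESeq2 gave 3. Of all genes, 57.8%, 56.5% and 5.32% were called in these fits, so that the counts are not particular to keratins. In these fits the lone library was assumed to vary like the 500-ng pair, whose spread was smaller. The difference in the Krt8 and Krt18 share was -2.22 percentage points without the 2 kb upstream (p = 0.0238, exact permutation test). Leaving out 1 library gave -0.588 to 0.0105 points, and the direction turned without uCG replicate 2, with 0.0105 points (p = 1, exact). It was -0.900 without the 5-ng libraries (p = 0.0571, exact, the smallest possible there), and -0.931 with 500 ng alone (p = 0.2, exact, the smallest possible there). The exact test could not pass without any 1 uCG replicate, where its smallest p is 0.0714. It did not pass with Krtap reads in the denominator, with capped sites or per CG, where it could have. The median of 1.50 reads per CG was 0.994 at 50 ng and 0.632 at 5 ng, 2.09 without the 2 kb upstream, 1.82 over CGs with a read, 1.55 over genes with at least 10 CGs, and 1.56 to 1.56 with 1 library. For the first 5 of these settings all genes had 1.07, 0.720, 1.57, 1.88 and 1.53, so that members were above all genes without the upstream region and over genes with at least 10 CGs, and below them at 50 ng, at 5 ng and over CGs with a read.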
